A study of Homo sapiens with 6 samples.

Results

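The genes of tryptophan breakdown were followed across 6 arrays of human uveal melanoma cell lines. The members were 10 genes chosen by symbol: IDO1, IDO2 and TDO2, which open the ring of tryptophan, AFMID, KMO, KYNU, AADAT, HAAO and QPRT of the kynurenine pathway, and WARS1, which loads tryptophan onto its tRNA. Each had 1 probe set with a single gene symbol, so 10 of the 18417 genes measured were members. Uveal melanoma is a tumour of the melanocytes of the eye, and 92.1, Mel 270 and Mel 290 are established lines of it. Each line gave 1 array grown alone and 1 array grown with activated T cells, hence 3 arrays per group. Plated were 80000 cells of 92.1 and 100000 each of Mel 270 and Mel 290, while the number of T cells was the same for every line. All cultures spent 64 h in a serum-free medium. In the co-cultures, 1500000 T cells per well, from healthy volunteers and activated with beads against CD3 and CD28, sat in an insert with 0.4 µm pores above the melanoma cells in 3 ml of medium. Soluble factors could pass and the melanoma cells alone were scraped off for RNA. The labels give the controls as cultured with no T cells and do not say whether an insert or beads were present, and each line is a single culture per condition.

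Tryptophan is mostly broken down through kynurenine. IDO1, IDO2 or TDO2 make N-formylkynurenine, AFMID turns it into kynurenine, and from there KMO, KYNU and HAAO lead to quinolinate, which QPRT feeds into the synthesis of NAD, while AADAT diverts kynurenine to kynurenic acid. IDO1 is a classic target of interferon gamma, and both the loss of tryptophan and the kynurenines it makes are known to restrain T cells. WARS1 is the cytosolic tryptophanyl-tRNA synthetase and is itself induced by interferon gamma.

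Signals are log2 values of the array, where a difference of 1 is 2-fold. Genes were tested if their mean over the 6 arrays was at least 5.80, the 25th percentile of the probe sets with 1 symbol, which left 13813 genes and 7 of the 10 members. Signals below that level are low and imprecise, and levels of different probe sets are not comparable with each other. A change is the co-culture value minus the value alone, with the SD over the 3 lines. Array medians ran from 6.63 to 6.69, and the correlation over probe sets between the 2 arrays of a line was r = 0.962 to 0.980, which are not independent replicates. The melanocyte genes TYR, TYRP1, MLANA and PMEL lay between 9.39 and 13.2 in 92.1 and Mel 270. In Mel 290, TYR, TYRP1 and MLANA lay below 5.80 and PMEL at 6.10 alone and 5.97 in co-culture, while MITF was at 8.96 and 8.16, SOX10 at 6.84 and 7.25 and SLC45A2 at 6.66 and 5.27. Of 7 melanocyte markers, 4 alone and 3 in co-culture were thus at or above 5.80 in that line, against 7 and 7 in 92.1 and 7 and 6 in Mel 270. None of the T cell receptor genes CD3D, CD3E and CD3G exceeded 5.70 in co-culture. The highest T cell marker on every array was CD7, at 8.12, 8.26 and 8.36 alone in 92.1, Mel 270 and Mel 290. In co-culture CD7 was slightly higher in each line, at 8.22, 8.33 and 8.50. CD6, CD8A and LCK also lay above 5.80 on every array, and their differences had no shared direction over the lines. LCK, for example, was at 6.33, 6.46 and 6.35 alone and at 5.96, 6.15 and 6.45 in co-culture. Over 12 T cell markers the summed log2 signal was 66.1 to 68.2 alone and 65.5 to 68.9 in co-culture, with 4 to 5 and 4 markers at or above 5.80. Over 11 markers of monocytes, macrophages and dendritic cells, which also express IDO1 and KYNU, it was 66.0 to 67.8 alone and 67.7 to 70.9 in co-culture, with 4 to 6 and 5 to 7 at or above 5.80. The highest of these on every array was CD68, a lysosomal protein gene, at 10.07, 9.32 and 11.09 alone and 10.27, 10.76 and 11.70 in co-culture in 92.1, Mel 270 and Mel 290, higher in each co-culture. CD83 ran from 6.83 to 7.42 alone and from 8.03 to 9.30 in co-culture, and TYROBP from 7.50 to 7.83 over the 6 arrays. CSF1R was lower in each co-culture, with 5.73, 5.81 and 6.76 alone and 5.49, 5.67 and 6.31 in co-culture in 92.1, Mel 270 and Mel 290. LYZ reached at most 3.76 and CD14 at most 6.17. The part of such cells in the results was not tested.

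**Figure D1:**
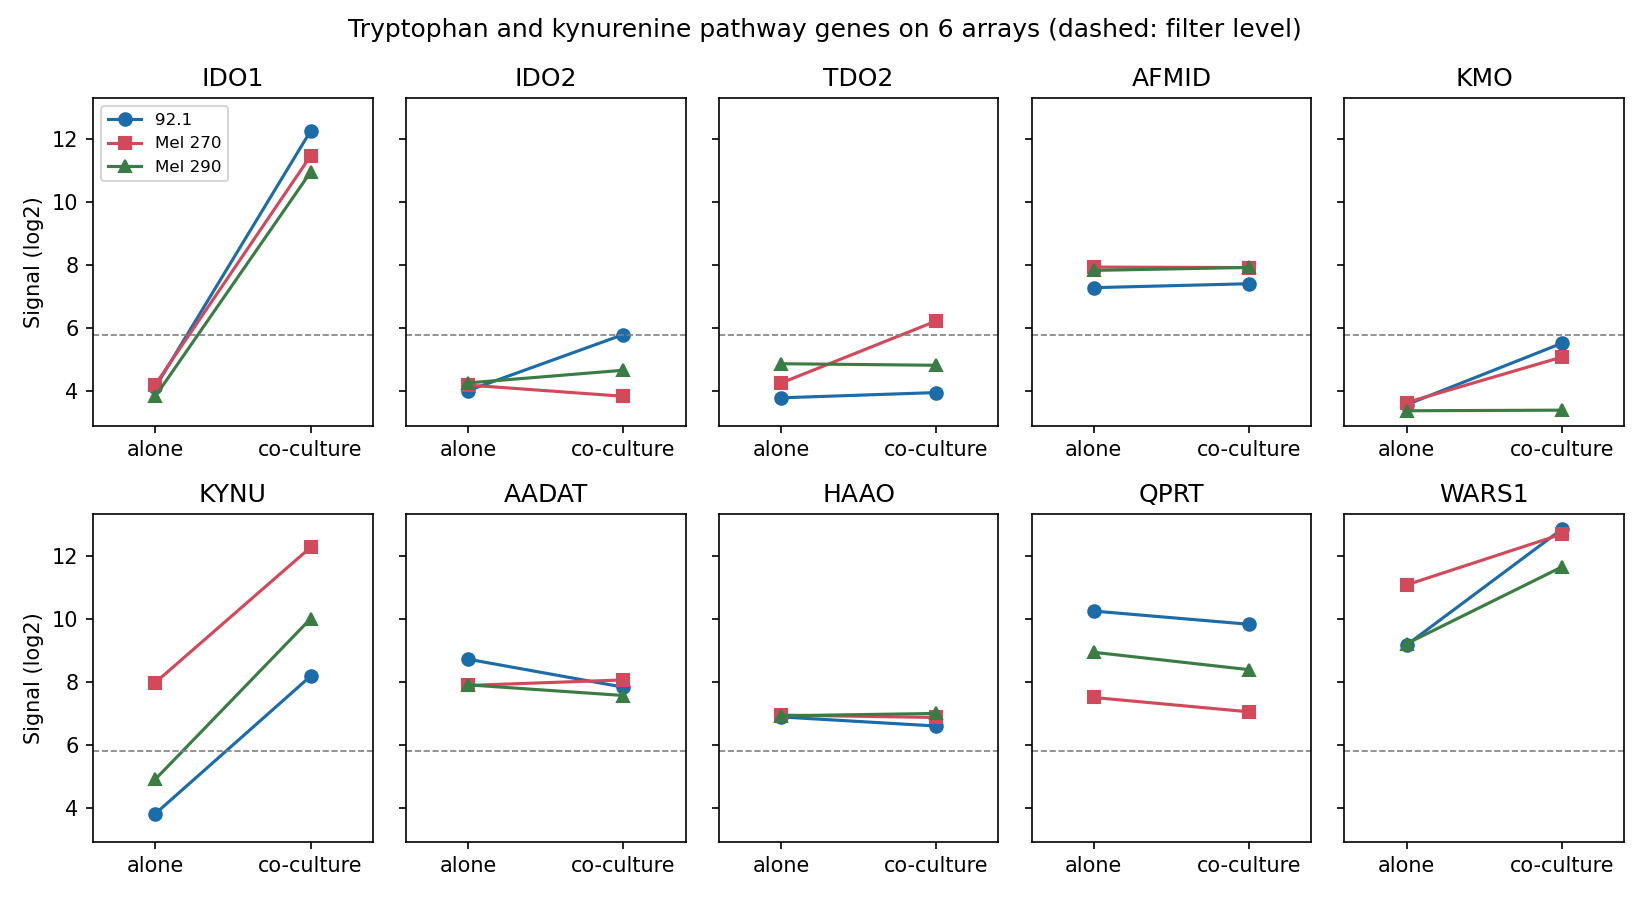
Log2 signal of the 10 members on the 6 arrays, with a line joining the array alone and the co-culture array of each cell line (1 array per point) and the filter level of 5.80 dashed. IDO1 goes from at most 4.21 to at least 10.96 in every line, and KYNU keeps the order Mel 270, Mel 290, 92.1 in both cultures. The KYNU signals of 92.1 and Mel 290 alone lie below the filter level.

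The first comparison set the pathway in co-culture against that in cells grown alone. IDO1 and KYNU rose, by 7.51 ± 0.55 and 4.59 ± 0.44 on the log2 scale (SD, n = 3 lines), and WARS1 was 2.58 ± 1.04 higher without passing the threshold. The genes at the end of the pathway, HAAO and QPRT, and the side branch gene AADAT had differences of -0.10 to -0.48. Among all tested genes 0.413% were called higher and 0.0362% lower at an adjusted p of 0.05 in limma, with the cell line as a block. Among the 7 tested members 2 were higher and 0 lower, and at an unadjusted p under 0.05 these counts were 3 and 1, where 7.02% of all tested genes were higher and 13.0% lower. Of all tested genes 16.2% were higher and 25.5% lower in 3 of 3 lines. IDO1 and KYNU had a mean below the filter when grown alone (4.06 and 5.56) and passed it only through the co-cultures, so their presence among the tested genes already depended on the difference. The signals in co-culture lay above those alone without overlap for 3 of the 7 tested members, IDO1, KYNU and WARS1, against 4.03% of the tested genes. No tested member lay below without overlap, against 5.96%.

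IDO1 (probe set 8146092), the inducible first enzyme, had log2 signals of 4.13 in 92.1, 4.21 in Mel 270 and 3.84 in Mel 290 grown alone. In co-culture they were 12.27, 11.48 and 10.96. All 3 lines thus went from below the filter level to far above it, and the groups were far apart. The changes were 8.14, 7.27 and 7.12, which placed IDO1 at rank 4 in 92.1, 3 in Mel 270 and 4 in Mel 290 among the 13813 tested genes. The mean rise of 7.51 ± 0.55 corresponds to 182-fold (adjusted p = 0.0029 in limma, higher in 3 of 3 lines). Since the starting signals were below the filter, the size is imprecise, and with values below 5.80 raised to that level the rise was 54.6-fold.

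The other enzymes that can open the tryptophan ring stayed low. IDO2 (probe set 8146105), the weaker paralog that lies next to IDO1 in the genome, had signals of 4.02, 4.20 and 4.27 in 92.1, Mel 270 and Mel 290 alone and of 5.81, 3.84 and 4.67 in co-culture. Only the 92.1 co-culture reached the filter level, and the changes of 1.78, -0.36 and 0.40 did not share a direction. TDO2 (probe set 8097991), the enzyme best known from liver, had signals of 3.80, 4.26 and 4.88 alone and of 3.96, 6.24 and 4.83 in co-culture. It exceeded 5.80 on the Mel 270 co-culture array alone, with a change of 1.97 there against 0.17 in 92.1 and -0.05 in Mel 290. Neither gene was tested because of its low mean. With no filter their adjusted p in limma was 0.55 for IDO2 and 0.50 for TDO2.

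AFMID (probe set 8010248), the formamidase that releases kynurenine, hardly differed between cultures. Its signals alone were 7.29 in 92.1, 7.95 in Mel 270 and 7.84 in Mel 290, and in co-culture 7.42, 7.93 and 7.93. The groups overlapped and the change was 0.07 ± 0.07 (SD, n = 3 lines, adjusted p = 0.83 in limma).

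Of the 3 members that use kynurenine itself, KYNU rose, KMO stayed below the filter and AADAT had no shared direction. KYNU (probe set 8045539), kynureninase, which cleaves kynurenine and 3-hydroxykynurenine, had signals of 3.80 in 92.1, 7.97 in Mel 270 and 4.90 in Mel 290 alone. In co-culture they were 8.17, 12.26 and 10.00. Each line rose by a similar amount (4.37, 4.30 and 5.10) from unlike starting points, and the lowest co-culture value, in 92.1, lay only just above the Mel 270 value alone. The mean rise of 4.59 ± 0.44 is 24.1-fold (adjusted p = 0.0048 in limma, higher in 3 of 3 lines). In Mel 270 both arrays were well above the filter, so that line's 19.6-fold difference does not rest on low signals. With low values raised to 5.80 the mean was 12.3-fold and no longer called (3.62, adjusted p = 0.059), and without the cell line block it was not called (adjusted p = 0.68), while the range over all 11 alternatives was 0.0015 to 0.68.

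The RefSeq promoter window of KYNU (GRCh38.p14, chr2:142877414-142877713, + strand, 250 bases before to 50 after the gene start) is shown because KYNU rose in every line and the window holds matches to a gamma-activated site, a motif of genes that respond to interferon gamma. The letters searched were TTCNNNGAA, which reads the same on both strands, and, on both strands, the core of the interferon-stimulated response element (GAAA, any 2 bases, GAAA). Capitals mark the matches, which do not overlap each other.
KYNU: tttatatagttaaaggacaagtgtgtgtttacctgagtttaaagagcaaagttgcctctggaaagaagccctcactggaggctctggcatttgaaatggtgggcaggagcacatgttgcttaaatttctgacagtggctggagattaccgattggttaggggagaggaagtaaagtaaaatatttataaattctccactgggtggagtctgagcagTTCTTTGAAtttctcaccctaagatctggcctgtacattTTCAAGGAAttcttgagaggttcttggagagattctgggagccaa
TTCNNNGAA matched at positions -34 to -26 and at 6 to 14 from the gene start, and the response element core had no match. Of 35116 promoter windows 7.66% held TTCNNNGAA, 0.456% held it 2 or more times and 3.57% held the response element core. These are matches of letters and not measured binding. Promoter windows were found for 8 of the 10 members, 12 windows in all, and the windows of TDO2, KMO, HAAO, QPRT, AFMID and AADAT matched neither motif.

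KMO (probe set 7910950), kynurenine monooxygenase, which makes 3-hydroxykynurenine, lay below 5.80 on all 6 arrays. Its signals were 3.58, 3.65 and 3.38 alone and 5.53, 5.09 and 3.40 in co-culture in 92.1, Mel 270 and Mel 290. The 92.1 and Mel 270 co-cultures were above all other arrays and Mel 290 was level (changes of 1.95, 1.44 and 0.02), with an adjusted p of 0.24 in limma with no filter. AADAT (probe set 8103706), an aminotransferase that makes kynurenic acid, had signals of 8.71, 7.88 and 7.90 alone and of 7.82, 8.05 and 7.56 in co-culture. The single high value was that of 92.1 alone, and the change was -0.35 ± 0.53 (adjusted p = 0.47 in limma).

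The last enzymes before NAD did not follow IDO1 and KYNU. HAAO (probe set 8051799), which makes the precursor of quinolinate, had signals of 6.88, 6.94 and 6.91 alone and of 6.59, 6.86 and 6.99 in co-culture, with overlapping groups (-0.10 ± 0.18, adjusted p = 0.77 in limma). QPRT (probe set 7994609), which uses quinolinate up, had signals of 10.24 in 92.1, 7.50 in Mel 270 and 8.93 in Mel 290 alone and of 9.82, 7.04 and 8.38 in co-culture. The groups overlapped because the lines differed widely, yet each line was lower in co-culture by a similar amount (-0.42, -0.46 and -0.55). The mean change was -0.48 ± 0.07, or 1.39-fold lower, and did not pass (adjusted p = 0.13 in limma).

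**Figure D2:**
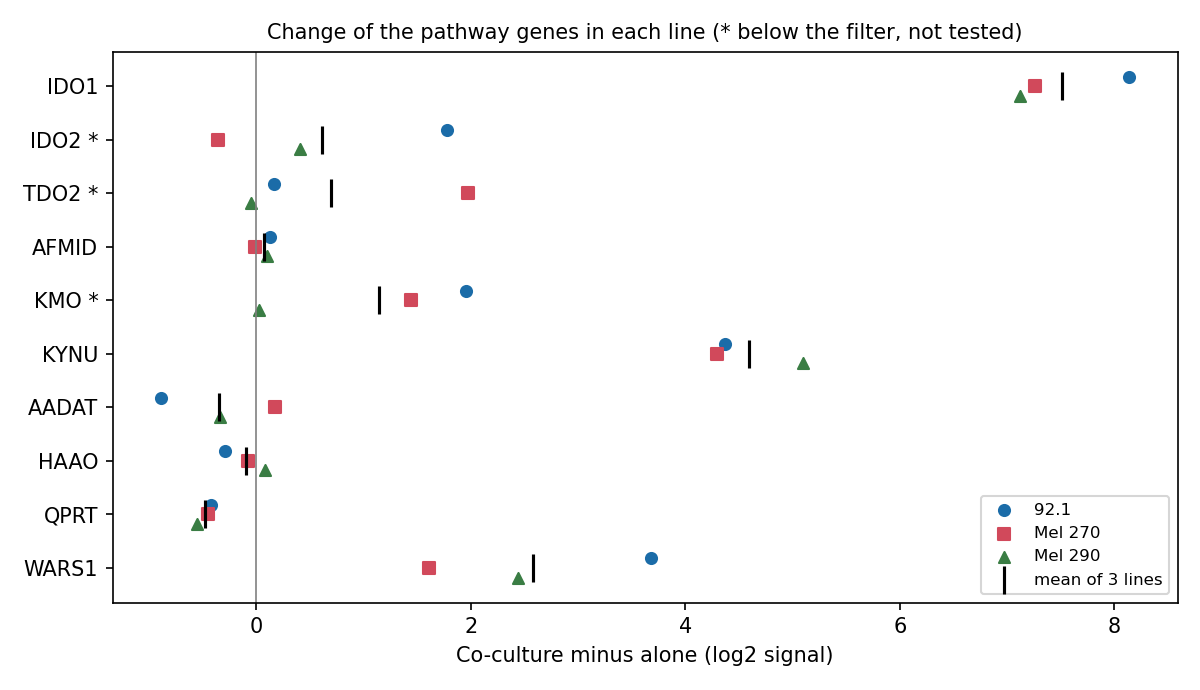
Co-culture minus alone (log2 signal) of each member in each line, with the mean of the 3 lines as a bar, in the order of the pathway; an asterisk marks genes below the filter. IDO1 lies between 7.12 and 8.14, KYNU between 4.30 and 5.10 and WARS1 between 1.61 and 3.68, and QPRT lies between -0.55 and -0.42.

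WARS1 (probe set 7981290) competes for the same amino acid by charging tRNA with it. Its signals alone were 9.16 in 92.1, 11.07 in Mel 270 and 9.20 in Mel 290, and in co-culture 12.84, 12.68 and 11.64. All co-culture values lay above all values alone, and Mel 270, which started highest, differed least. The lines were 12.8-fold, 3.06-fold and 5.42-fold higher. The mean change of 2.58 ± 1.04 did not pass (adjusted p = 0.075 in limma, higher in 3 of 3 lines). Without Mel 270 it was 3.06 and was called (adjusted p = 0.019, range over alternatives 0.019 to 0.53).

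RefSeq lists 2 promoter windows for WARS1, both on the - strand of GRCh38.p14, at chr14:100376278-100376577 (upstream) and chr14:100375298-100375597 (downstream). They are shown because the downstream window holds both interferon motifs and the upstream window neither, with the matches in capitals.
WARS1 upstream: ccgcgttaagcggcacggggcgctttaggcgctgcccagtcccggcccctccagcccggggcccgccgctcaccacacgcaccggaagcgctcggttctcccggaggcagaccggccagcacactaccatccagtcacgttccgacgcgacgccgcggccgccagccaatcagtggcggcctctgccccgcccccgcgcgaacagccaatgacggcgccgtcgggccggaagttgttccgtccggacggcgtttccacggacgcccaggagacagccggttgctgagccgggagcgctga
WARS1 downstream: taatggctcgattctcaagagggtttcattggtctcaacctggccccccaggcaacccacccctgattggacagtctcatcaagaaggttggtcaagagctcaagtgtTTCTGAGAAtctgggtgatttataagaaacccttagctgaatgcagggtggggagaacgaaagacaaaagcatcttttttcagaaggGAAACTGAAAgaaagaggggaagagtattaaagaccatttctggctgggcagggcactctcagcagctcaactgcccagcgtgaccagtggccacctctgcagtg
In the downstream window TTCNNNGAA matched at positions -142 to -134 and the response element core at -55 to -46 from that start. Both motifs together were found in 0.439% of the 35116 windows. The array gives 1 signal for the gene, so which start site was used was not measured.

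WARS1 was set beside the other cytosolic aminoacyl-tRNA synthetases, which load the other amino acids. The 18 measured were all tested. None of the 18 was called in either direction in limma, and at an unadjusted p under 0.05 there was 1 higher and 3 lower, against 7.02% and 13.0% of all tested genes. Their median change was -0.24, beside -0.04 over all tested genes, and single genes ran from -1.08 for FARSB to 0.90 for CARS1. QARS1 (-0.58 ± 0.18) and VARS1 (-0.49 ± 0.13) were the next in size and did not pass. Within each line the WARS1 change exceeded that of all 18 others: 3.68 against at most 1.46 (CARS1) in 92.1, 1.61 against at most 1.22 (CARS1) in Mel 270 and 2.44 against at most 0.35 (MARS1) in Mel 290. The median of the 18 was 0.20 in 92.1, -0.65 in Mel 270 and -0.27 in Mel 290. MARS1 was chosen after its value was seen.

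**Figure D3:**
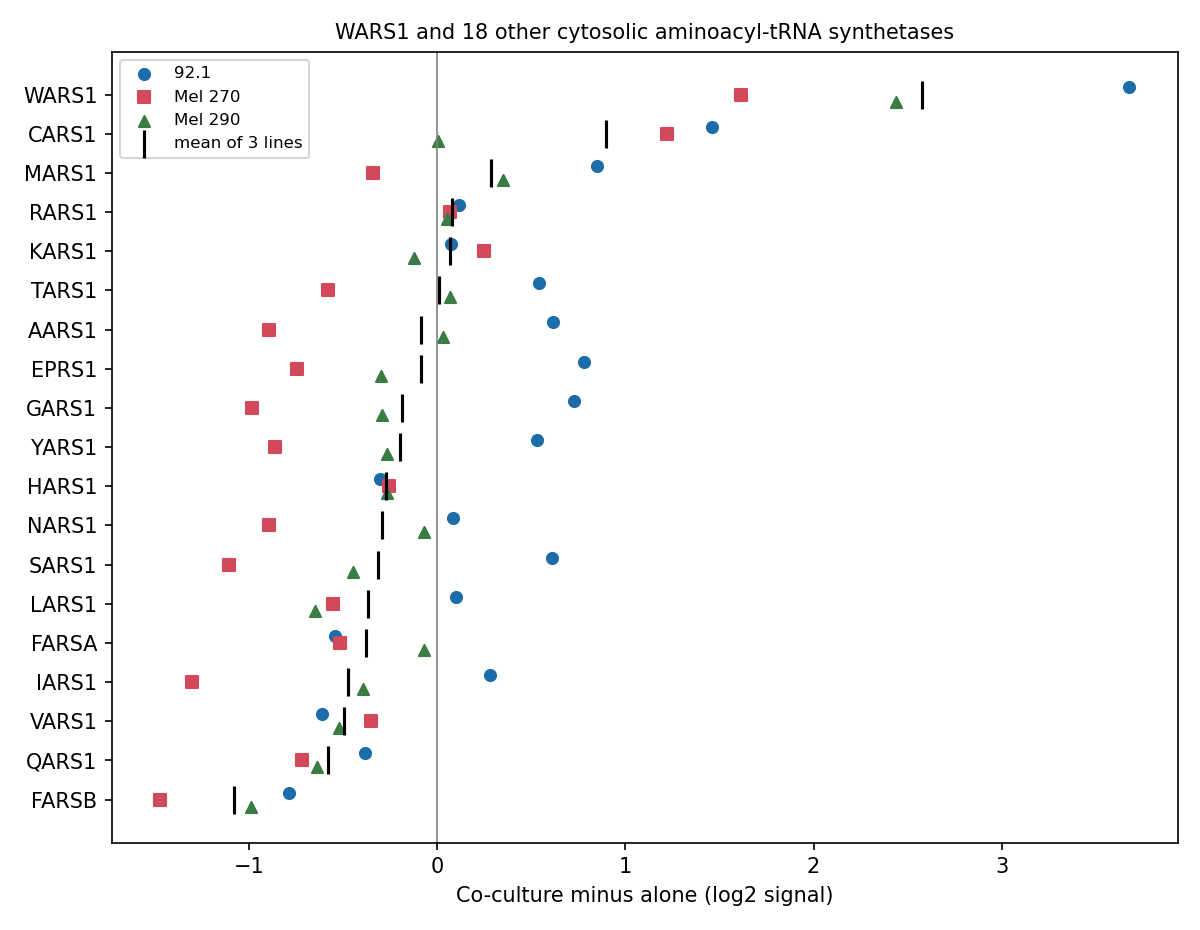
Co-culture minus alone (log2 signal) of WARS1 and 18 other cytosolic aminoacyl-tRNA synthetases in each line, ordered by their mean (bar). WARS1 lies at 1.61 to 3.68, and the highest other value is 1.46, for CARS1 in 92.1.

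Counted by line at 2-fold or more, without a test because each line had 1 array per culture, 5 of 10 members were higher in 92.1, 5 in Mel 270 and 3 in Mel 290, and none was 2-fold lower in any line. Over all 18417 measured genes the shares 2-fold higher were 3.05% in 92.1, 4.40% in Mel 270 and 1.91% in Mel 290, and those 2-fold lower 2.24%, 3.58% and 1.97%. IDO1, KYNU and WARS1 made up the 3 shared genes. The others were KMO and IDO2 in 92.1 and KMO and TDO2 in Mel 270. KMO, IDO2 and TDO2 rested on signals below or near the filter level.

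The second comparison asked which members differed between the lines whatever the culture, each line against the mean of the other 2 in the same fit. No line had repeat cultures, so these p-values measure how evenly the line difference held in the 2 cultures. KYNU was higher in Mel 270, by 3.62 alone and 3.18 in co-culture (3.40 on average, adjusted p = 0.0028 in limma), and lower in 92.1, by -2.63 and -2.96 (-2.79, adjusted p = 0.0051). Mel 270 exceeded 92.1 17.9-fold alone and 17.0-fold in co-culture. The order Mel 270, Mel 290, 92.1 was thus kept although every line rose.

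QPRT had the opposite order of lines in both cultures. It was higher in 92.1, by 2.03 alone and 2.11 in co-culture (2.07 on average, adjusted p = 0.0040 in limma), and lower in Mel 270, by -2.09 and -2.06 (-2.07, adjusted p = 0.0028). The line with the highest KYNU signal thus had the lowest QPRT signal, a description over 3 lines. AFMID was lower in 92.1 (-0.56, adjusted p = 0.048) by a small margin that was lost with a filter at the median (adjusted p = 0.051) or with a trended, robust prior (adjusted p = 0.055). Its range over alternatives was 0.041 to 0.055.

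Among the 7 tested members 1 was higher and 2 lower in 92.1, where 9.73% and 6.18% of tested genes were called. In Mel 270 it was 1 and 1, against 6.83% and 7.62%. In Mel 290 it was 0 and 0, against 11.3% and 14.9%, and at an unadjusted p under 0.05 in limma KYNU alone was lower there, where 17.2% of tested genes were higher and 22.3% lower. IDO1 did not pass in any line: in co-culture the order was 92.1, Mel 270 and Mel 290, with 1.30 between the highest and the lowest, and alone all lines were below the filter. WARS1 was 1.89 above the other lines in Mel 270 alone and 0.44 above them in co-culture, and none of its line differences passed (adjusted p of 0.13 to 0.83 in limma).

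The step from interferon gamma receptor to IDO1 was described by 12 genes, of which 9 were tested. Of these, 2 were called higher and 0 lower, against 0.413% and 0.0362% of all tested genes. At an unadjusted p under 0.05 in limma 6 were higher and 0 lower, against 7.02% and 13.0%. IRF1, a transcription factor that drives IDO1, rose by 4.75 ± 0.42 (adjusted p = 0.0039 in limma), from 5.56, 6.17 and 6.45 in 92.1, Mel 270 and Mel 290 to values 5.23, 4.50 and 4.50 higher. JAK2, a kinase of the receptor, rose by 2.07 ± 0.23 (adjusted p = 0.014) and was not called when 92.1 (adjusted p = 0.058) or Mel 290 (adjusted p = 0.059) was left out or without the cell line block (adjusted p = 0.49). IRF9 (1.60 ± 0.48), the feedback inhibitors SOCS3 (1.31 ± 0.70) and SOCS1 (0.77 ± 0.39), and the receptor chain IFNGR1 (0.81 ± 0.55) were higher in 3 of 3 lines and did not pass. BIN1 (-0.14 ± 0.10) was lower in 3 of 3 lines, also without passing. Of the 9 tested genes 7 were higher and 1 lower in 3 of 3 lines, against 16.2% and 25.5% of all tested genes. The median of the list was 0.81, beside -0.04 over all tested genes.

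Genes that respond to kynurenine or carry it were described next. Kynurenine is a known ligand of the aryl hydrocarbon receptor, whose gene AHR was 1.70, 1.01 and 0.66 higher in 92.1, Mel 270 and Mel 290 (1.12 ± 0.53, adjusted p = 0.095 in limma). Of 9 genes of the receptor and its targets 7 were tested and none was called. At an unadjusted p under 0.05 in limma 3 were higher and 0 lower (7.02% and 13.0% of all tested genes). The median was 1.01, beside -0.04 over all tested genes. TIPARP, a target that feeds back on the receptor, differed evenly (1.01 ± 0.14, adjusted p = 0.066 in limma), whereas CYP1A1 and CYP1B1 did not. CYP1A1 was 2.92 higher in 92.1, 3.95 in Mel 270 and 0.20 in Mel 290 (adjusted p = 0.17). CYP1B1 was 3.44 higher in 92.1, with 0.01 and 0.32 in the others (adjusted p = 0.40). The high values of CYP1A1 were thus those of the 92.1 and Mel 270 co-cultures, and for CYP1B1 the difference lay in 92.1. CYP1A2 (-0.12, 0.18 and 0.46) and NQO1 (0.44, 0.89 and -1.55) had no shared direction in 92.1, Mel 270 and Mel 290. Of the 7 tested genes 5 were higher in 3 of 3 lines, against 16.2% of all tested genes.

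Of 9 genes of amino acid and kynurenine transport 8 were tested and none was called, with 0 higher and 2 lower at an unadjusted p under 0.05 in limma (7.02% and 13.0% of all tested genes) and a median of -0.04. SLC16A10, a carrier of aromatic amino acids, had changes of -1.76, -2.06 and -0.89 (mean -1.57 ± 0.61, adjusted p = 0.075). SLC7A8, another carrier of large neutral amino acids, differed by -0.80 ± 0.75, SLC36A4 by 0.37 ± 0.88 and SLC1A5 by -0.24 ± 0.33. Of 15 other enzymes of tryptophan metabolism 7 were tested and none was called, with 0 higher and 3 lower at an unadjusted p under 0.05 in limma, against the same 7.02% and 13.0%. GOT2 (-0.77 ± 0.41) and KYAT1 (-0.63 ± 0.28), which like AADAT can make kynurenic acid, and the mitochondrial synthetase WARS2 (-0.60 ± 0.48) were lower in 3 of 3 lines without passing, as was GCDH (-0.43 ± 0.41), a pattern of direction found in 25.5% of all tested genes. KYAT3, another kynurenine aminotransferase, went the other way in 3 of 3 lines (0.27 ± 0.02, adjusted p = 0.30 in limma). That direction was found in 16.2% of all tested genes. The median of the 7 tested enzymes was -0.43.

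NAD can be made from quinolinate through QPRT or salvaged from nicotinamide through NAMPT. NAMPT had signals of 10.54, 11.28 and 11.34 alone and was 1.53, 1.97 and 1.28 higher in co-culture. Its mean change of 1.59 ± 0.35 missed the threshold (adjusted p = 0.051 in limma). It was called after quantile normalization (adjusted p = 0.042), with a filter at the median (adjusted p = 0.042) and with a trended, robust prior (adjusted p = 0.034). It was called under no other alternative, and the range over all 11 was 0.034 to 0.51. NNMT, which methylates nicotinamide, was 1.66 higher in Mel 270 and 1.62 in Mel 290 and differed by -0.14 in 92.1. NMRK2 differed by -2.20 in 92.1 with -0.42 and 0.14 in the others, and NADSYN1 by 0.26 ± 0.10. Of 9 genes of NAD supply 7 were tested and none was called, with 2 higher and 0 lower at an unadjusted p under 0.05 in limma (7.02% and 13.0% of all tested genes) and a median of 0.04.

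**Figure D4:**
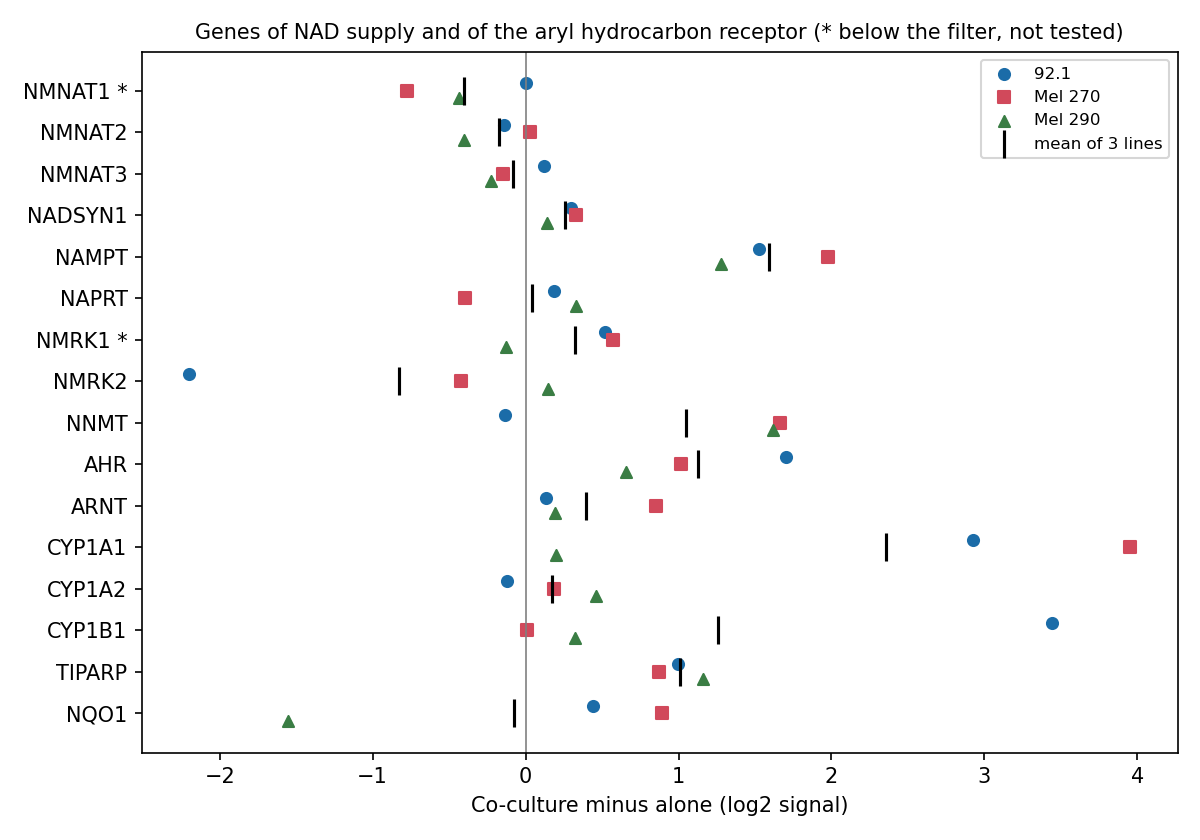
Co-culture minus alone (log2 signal) of genes of NAD supply (upper rows) and of the aryl hydrocarbon receptor and its targets (lower rows) in each line, with the mean as a bar; an asterisk marks genes below the filter. NAMPT lies at 1.28 to 1.97 in the 3 lines, and CYP1A1 at 0.20 in Mel 290 against 2.92 and 3.95 in the others.

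Cells sense a shortage of amino acids through the kinase encoded by EIF2AK4, which raises ATF4 and its targets. All 8 genes of this list were tested and none was called, with 2 higher and 1 lower at an unadjusted p under 0.05 in limma, against 7.02% and 13.0% of all tested genes. By line the median was 1.32 in 92.1, -0.32 in Mel 270 and -0.01 in Mel 290. Of the 8, 5 were 2-fold or more higher in 92.1 against 0 in each of the others. Over all measured genes the shares 2-fold higher were 3.05% in 92.1, 4.40% in Mel 270 and 1.91% in Mel 290. ASNS differed most between the lines, with changes of 2.61 in 92.1, -1.49 in Mel 270 and 0.03 in Mel 290. CHAC1 was 2.23 higher in 92.1 (-0.41 and 0.02 in Mel 270 and Mel 290) and DDIT3 1.88 higher (-0.24 and -0.03). Without 92.1 the means of CHAC1 (-0.20) and DDIT3 (-0.13) turned sign. ATF4 (0.69 ± 0.49) and SESN2 (0.73 ± 0.64) were higher in 3 of 3 lines without passing. EIF2AK4 (-0.52 ± 0.07) and GCN1 (-0.27 ± 0.17), of the same list, were lower in 3 of 3 lines, also without passing. Of all tested genes 16.2% were higher and 25.5% lower in 3 of 3 lines. No difference between the lines was tested here, as each had 1 array per culture.

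The genes whose signals were most like those of IDO1 over the 6 arrays, by Pearson correlation of log2 values, were CXCL11 (r = 0.998), CXCL10 (0.995), APOL1 (0.994), CXCL9 (0.994) and EIF3J-DT (0.994). The chemokines and APOL1 were called higher, whereas EIF3J-DT differed by 0.34 ± 0.06 without passing. For KYNU they were NFKBIZ (0.993), GPATCH2L (0.989), CMC1 (0.988), UBE2Z (0.983) and CBLN3 (0.981). NFKBIZ, an inducible regulator of NF-kappaB, rose by 2.48 ± 0.45 (adjusted p = 0.022 in limma), and the others differed by at most 0.53 without passing. Over these 6 arrays of 3 lines 58 tested genes correlated above 0.95 with IDO1 and 21 with KYNU, so the order is a description. The genes were picked by likeness on the same arrays, so their calls are not independent of that choice.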

How the data were processed

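Total RNA of 6 samples was measured on 6 arrays. Per the submitters' processing notes, Affymetrix Expression Console 1.2.0.20 made the values; how background, summarization and normalization were done is not given in the sources used here. Deposited values are log2 signals with nearly equal distributions, and the authors' values were used as deposited. Of 33297 probe sets, 19460 had 1 symbol, 1754 several and 12083 were unnamed here; 19429 of the first were matched to RefSeq symbols. The probe set with the highest mean stood for a gene. Differences were tested with limma 3.58.1 in R 4.3.3 (lmFit, eBayes) over all 13813 genes with culture and cell line as terms, which left 2 residual degrees of freedom and a prior of 3.10, with Benjamini-Hochberg adjustment at 0.05. The cell line pairs the arrays. P-values measure the spread between 3 lines, not between repeat cultures, and an exact two-sided permutation within 3 pairs cannot go below 0.25. The number of arrays limits precision. The fit was tested on simulated data. Named were all members, of each companion list the called genes and up to 4 others of largest change, and 5 genes most like each called member. EIF2AK4, GCN1, ASNS, KYAT3, BIN1, CYP1A2 and NQO1 were named after their values were seen. Members and lists were chosen with earlier results of these data known. Alternatives were cyclic loess, quantile normalization, the mean of probe sets, raised low values, other filters, a trended robust prior, no cell line block and each line left out. RefSeq promoters (GRCh38.p14) were used for motif matches; no build is named for the files.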

Additional observations from a re-analysis of the deposited data

Results flagged for a closer look

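Members whose change went one way in a line and the other way in another line were singled out; with 1 array per line and culture the difference was not tested. The gap between the highest and the lowest line was 2.14 for IDO2 (92.1 against Mel 270) and 2.02 for TDO2 (Mel 270 against Mel 290), both with signals mostly below the filter. AADAT had a gap of 1.06 between Mel 270 and 92.1, HAAO of 0.36 between Mel 290 and 92.1, and AFMID of 0.14 between 92.1 and Mel 270.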

How the results depend on the processing

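Of 220 values of tested members under the alternatives, 212 kept their direction and their side of the threshold, 4 were weaker, 1 stronger and 3 reversed. Members called higher in co-culture fell from 2 to 1 with low values raised and without the replicate block (the cell line term), where genes called were 18 higher and 0 lower. Genes called lower, 5 in the fit used, were 1 after cyclic loess, 9 with a filter at the median, 8 with a trended, robust prior and 2 to 9 with a line left out. Members lower in 92.1 were 1 with a filter at the median and 1 with a trended, robust prior. The 3 reversed member values were -0.0060 for QPRT in Mel 290 against the other lines after quantile normalization, -0.069 for IDO1 in Mel 270 against the others with low values raised, and HAAO in co-culture (-0.18 to 5e-04 with a line left out), turned without 92.1. Among companion genes CHAC1 (-0.20 to 1.13) and DDIT3 (-0.13 to 0.92) turned without 92.1, and SLC36A4 (-0.14 to 0.70) without Mel 270. The cause was not tested. IDO1 was called under all 11 alternatives (adjusted p of 7.2e-04 to 0.016 in limma). Signal over background limits IDO2, TDO2 and KMO, and the sizes for IDO1 and for KYNU in 92.1 and Mel 290.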

Other observations

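The nearest protein-coding neighbours of the members were looked up in RefSeq. Next to IDO1 and IDO2, ADAM2 differed by 0.04 ± 0.17 (SD, n = 3 lines) and TCIM by 0.66 ± 0.39 (adjusted p = 0.15 in limma). The neighbours of KYNU, LRP1B (-0.02 ± 0.10) and ARHGAP15 (-0.05 ± 0.15), lay below the filter and showed no shift like that of KYNU. Beside WARS1, WDR25 was 1.01, 0.65 and 0.48 higher in 92.1, Mel 270 and Mel 290 without passing (adjusted p = 0.11), and SLC25A47 differed by -0.01 ± 0.07. CTSO, a cathepsin gene next to TDO2, was 2.83, 3.14 and 1.29 higher (2.42 ± 0.99, adjusted p = 0.075), while TDO2 was below the filter on 5 of 6 arrays. AFMID lies between TK1 and BIRC5, both linked to cell division, which were lower in 3 of 3 lines (-0.96 ± 0.49 and -0.65 ± 0.26, adjusted p = 0.11 and 0.12) while AFMID differed by 0.07. Neighbours were chosen by position.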
